A study of Homo sapiens with 4 samples.

Results

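Footprints were far more numerous in arginine-free medium at a pair of places that, read on the older human genome build, hold the genes of activin A and of its inhibitor follistatin. The places are the rows ENSG00000309277.1 (chromosome 7, 41728445 to 41760458, minus strand) and ENSG00000248898.5 (chromosome 5, 52673186 to 52799956, minus strand), 2 of the 78724 gene identifiers in a table of ribosome footprint counts and 2 of the 9443 identifiers with a read in any library. They were chosen by identifier, with their counts already known to differ this way, so for them the difference between the media is a description and carries no test. The coordinates of the table are those of GRCh38, while the submitters' processing notes name GRCh37 and hg19 for the reads. If the reads lie on GRCh37, the first span holds INHBA and the second holds FST. This is an inference from place, and no GRCh37 annotation was used here to test it.

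Ribosome profiling sequences the short RNA pieces that translating ribosomes shield from nuclease. The cells were A375, an established human melanoma line, so every value comes from a single line. They spent 48 h in control medium (2 libraries) or in a medium that lacked L-arginine and held the other amino acids (2 libraries). The arginine-free medium was built on RPMI 1640 without amino acids, the cells had been grown in DMEM with fetal bovine serum, and the labels do not describe the control medium further. Nothing in them says that the libraries of a group came from separate cultures, so the spread between them may be technical. Total counts were 105004 and 217989 in control replicates 1 and 2, and 234766 and 192006 in arginine-free replicates 1 and 2. Of 9 rows at the places of melanocyte markers, 5 held reads, and their summed level, taken mainly by MFSD12, was 2518 to 3743 CPM of all rows in control and 749.7 to 839 CPM in arginine-free medium. TYRP1 and MLANA, which lie in stretches of chromosome where rows can be read as their genes, held 16 and 6 reads in control replicate 1, 25 and 10 in control replicate 2, 1 and 0 in arginine-free replicate 1 and 0 and 2 in arginine-free replicate 2. The rows of MITF, TYR, PMEL and SOX10 held none, and no row was matched to DCT. Rows at the places of fibroblast and leukocyte markers held no read, and those of keratinocyte markers summed to at most 29.8 CPM in any library. All of these rows, and those of MITF, TYR, PMEL and SOX10, lie outside the stretches in which rows can be read as genes. Their counts are therefore values of places, and nothing is read from them about whether those genes or cell types were present. The part of the melanocyte marker difference in the results below was not tested.

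INHBA encodes the inhibin beta A chain. A pair of these chains, joined by a disulphide bond, forms activin A, a secreted ligand of the TGF-beta family. Activin binds the type II receptors ACVR2A and ACVR2B, which switch on the type I receptor ACVR1B, and the signal passes to SMAD2, SMAD3 and SMAD4. FST encodes follistatin, a secreted protein that wraps around activin and keeps it from its receptors, and FST is itself a known target of activin signalling.

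On GRCh38 neither row is the gene inferred for it. The row on chromosome 7 matched no RefSeq gene; it lies inside the span of the antisense RNA INHBA-AS1, 22.6 kb from INHBA itself. The row on chromosome 5 is the place of PELO-AS1, an antisense RNA next to PELO, and lies 681 kb from FST. The table's own rows for INHBA (chromosome 7, 41685114 to 41705834) and FST (chromosome 5, 53480626 to 53487134) held 0 reads in all 4 libraries, as did the row of INHBA-AS1. A count of 0 allows up to 3 reads, a floor that ranges from 12.8 CPM to 28.6 CPM of all rows over the libraries.

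Counts cover only the exons of a row. The row on chromosome 7 has 5 merged exons with 3418 bases in all, the largest of them 1272 bases. The row on chromosome 5 has 7, with 3513 bases, of which 2431 lie in the first exon by position. Reads between these exons were not counted in these rows. Which exons of the rows held the reads cannot be read from the table.

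For reference, the 250 bases before the start of INHBA and of FST are shown, since both inferred places were higher in arginine-free medium; both were read from RefSeq on GRCh38.p14 (INHBA at chr7:41703091-41703340, minus strand, and FST at chr5:53480379-53480628, plus strand), 5′ to 3′, and the capitals mark the letters TATAAA.
INHBA: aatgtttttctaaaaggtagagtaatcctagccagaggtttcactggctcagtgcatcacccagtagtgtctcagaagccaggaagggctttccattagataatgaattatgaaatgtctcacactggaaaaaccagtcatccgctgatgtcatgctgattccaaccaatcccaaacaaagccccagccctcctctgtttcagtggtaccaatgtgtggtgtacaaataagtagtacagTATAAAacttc
FST: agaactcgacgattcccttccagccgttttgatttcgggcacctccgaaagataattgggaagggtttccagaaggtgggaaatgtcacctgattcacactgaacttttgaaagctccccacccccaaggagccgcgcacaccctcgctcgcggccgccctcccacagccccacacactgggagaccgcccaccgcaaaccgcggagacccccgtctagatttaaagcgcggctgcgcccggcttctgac
The INHBA window lies inside the span given above for the INHBA row, so it precedes the start taken from RefSeq and not the whole row. The INHBA stretch had a GC content of 42.8% and the FST stretch 60%, against a median of 58% over 35116 promoters of the same length. TATAAA was found once in INHBA and not in FST, on either strand, and in 10.7% of all promoters. The letters TGATGNAA (core of the amino acid response element, in 3.14% of all promoters), TGACTCA (AP-1, 4.2%), TGACGTCA (cyclic AMP response element, 1.65%) and GTCTAGAC (SMAD, 0.182%) were in neither window on either strand. Only these exact letters were searched, so shorter or partial forms, such as part of the SMAD motif, were not counted. The motifs were chosen with the sequences in view, and the footprint counts do not bear on the promoters directly.

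At the inferred place of INHBA, row ENSG00000309277.1 held 4 and 11 reads in control replicates 1 and 2, and 1006 and 556 in arginine-free replicates 1 and 2. Scaled for depth, the control libraries stood at 37.7 and 56.4 CPM and the arginine-free libraries at 4357 and 3492 CPM (each count divided by its library's TMM-adjusted size over the tested rows). Both control libraries were near the lowest level that can be counted, and both arginine-free libraries stood far above them. The mean was 47.1 ± 13.2 CPM with arginine and 3925 ± 611 CPM without it (SD, n = 2 each), for a fitted log2 fold change of 6.30 (SE 0.33), which is 78.6-fold. The lowest arginine-free library was 61.9 times the highest control library. By summed counts the ratio was 78.8, with an exact 95% counting interval from 47.6 to 141, which covers counting error only. Its share of all counts was 0.00464% in control medium and 0.366% in arginine-free medium.

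At the inferred place of FST, row ENSG00000248898.5 held 2 and 7 reads with arginine present and 570 and 456 reads without it. On the scaled level the libraries stood at 18.8 and 35.9 CPM against 2469 and 2864 CPM. As at the activin place, the groups did not overlap, and the lowest arginine-free library was 68.8 times the highest control library. The mean was 27.4 ± 12.1 CPM with arginine and 2666 ± 279.7 CPM without it (SD, n = 2 each), for a fitted log2 fold change of 6.46 (SE 0.34), or 88.0-fold. By summed counts the ratio was 86.3, with an exact 95% counting interval from 45.3 to 189. Both arginine-free libraries were above both control libraries in 33.1% of 2526 tested rows, and nothing is read from that share for rows chosen by this contrast. More cells that make an RNA and more of it per cell cannot be told apart in such bulk libraries. Nor can a change in mRNA level be told from one in translation, since RNA-seq was not analysed here.

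**Figure D1:**
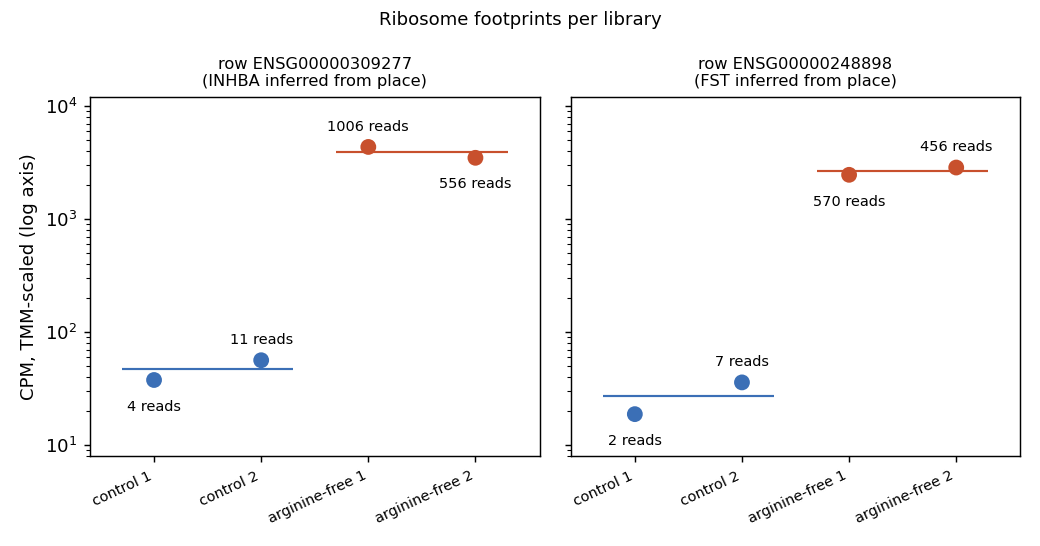
CPM on a log axis for each of the 4 libraries, 1 panel per row, with read counts beside the points and horizontal lines at the group means. The control libraries lie between 18.8 and 56.4 CPM and the arginine-free libraries between 2469 and 4357 CPM.

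Of 2524 tested rows with a read in control medium, the follistatin place had the highest fitted fold change and the activin place the next, and the row after them stood at 24.6-fold. Another 2 tested rows had no control read, so their fitted folds, which were higher, are no measure of size. In all, 35 of 2526 tested rows had a log2 fold change of at least 3. Per kilobase of exon, the activin place went from 13.8 ± 3.87 to 1148 ± 179 CPM per kb (SD, n = 2 each) and from rank 2016 to rank 68 of the tested rows. The follistatin place went from 7.79 ± 3.43 to 759 ± 79.6 CPM per kb (SD, n = 2 each), from rank 2300 to rank 113. These levels use the exon length of the rows and so are not levels of INHBA or FST.

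The rows differed from each other less than either differed between the media. The activin place held more reads in every library, by 2.06 and 1.62 times per length in control replicates 1 and 2, and by 1.81 and 1.25 times in arginine-free replicates 1 and 2. Within arginine-free medium the activin place was 1.25 times as high in replicate 1 as in replicate 2, while the follistatin place was 0.862 times as high. Within control medium both were higher in replicate 2, by 1.5 and 1.9 times, a difference that rests on 2 to 11 reads.

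Few reads were counted in the other rows near the chosen ones. Over the whole table only 12% of rows held a read in any library (9443 of 78724). Rows at 0 are therefore usual, and nothing is read from their number here. Within 500 kb of the activin place lie 18 other rows, and all 18 held 0 reads in the 4 libraries. INHBA and INHBA-AS1 are among them. Of the 19 other rows within 500 kb of the follistatin place, 17 held 0 reads. The row at the place of ITGA1 overlaps the follistatin place in span but shares no exon base with it. It held 22 and 46 control reads against 20 and 13 reads without arginine, and so was not higher there. The remaining row, ENSG00000298061, held 2 reads in all. The rows at ITGA1 and PELO lie outside the stretches of chromosome in which rows can be read as genes, so their values are those of places. No row shares exon bases with the activin place. The row at the place of PELO, a factor that rescues stalled ribosomes, was among those at 0 and shares 72 exon bases with the follistatin place. How reads on those shared bases were assigned is not given in the sources used here.

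**Figure D2:**
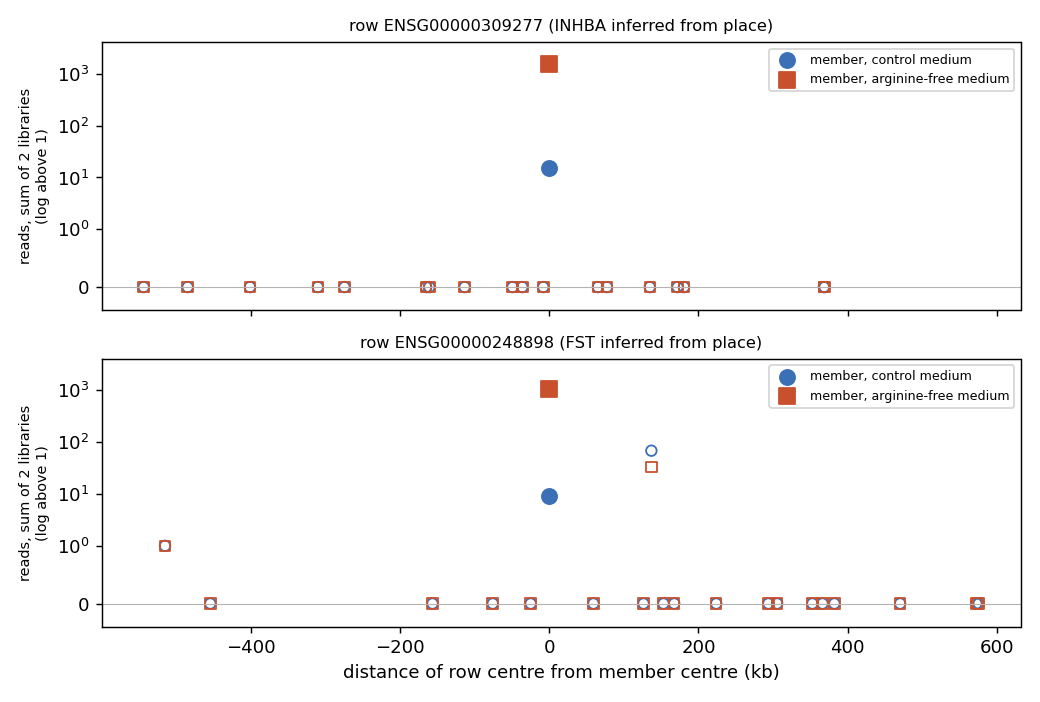
Reads summed over the 2 libraries of each medium, on an axis that is logarithmic above 1, for the chosen rows (filled) and the other rows within 500 kb (open; circles for control, squares for arginine-free medium), by distance between row centres in kb. Around the activin place all 18 neighbours lie at 0, and around the follistatin place 17 of 19 do.

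Few other genes of the activin pathway could be followed. Of 53 genes listed as ligands, receptors, antagonists, signal transducers or targets, 52 had a row, 33 of these rows were at 0 in every library and 8 held enough reads to be tested. The 14 ligand rows, including INHBA, gave none that could be tested, and 12 of them were at 0. The 9 receptor rows gave none either, and 6 were at 0. Across the lists 2 of 8 tested rows rose and none fell, where 16.0% of all 2526 tested rows rose and 16.9% fell (edgeR quasi-likelihood test, adjusted p under 0.05). At an unadjusted edgeR p under 0.05, 4 of the 8 were higher and 0 lower. The share of all tested rows at that threshold was not worked out. It is at least the 16.0% higher and 16.9% lower that passed after adjustment, and nothing is read from this count. DESeq2 called 1 of the 8 higher and 0 lower, against 162 higher and 147 lower of 2669 rows over the table. The median log2 fold change of the 8 was 0.44, against -0.03 over all tested rows. Only 4 of the 8 lie in stretches where rows can be read as genes (NCLN, DAB2, PIAS4 and GADD45B), and none of these passed in the main fit. The rows that rose, at TGIF1 and SMAD6, lie outside the stretches. The count and the median are therefore partly those of places and are not read as a result for the pathway.

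Among the transducers, the row at the place of TGIF1, a repressor that limits SMAD-driven transcription, rose. It held 26 and 57 control reads against 289 and 248 reads without arginine, with no overlap. Its level was 269 ± 33.4 CPM in control and 1405 ± 216 CPM in arginine-free cells (SD, n = 2 each). The log2 fold change was 2.36 with an SE of 0.24 (edgeR adjusted p = 6.25e-06). The row at the place of SMAD6, an inhibitory SMAD, also rose, at 73.6 ± 2.54 CPM in control and 162 ± 52.0 CPM in arginine-free cells (SD, n = 2 each). The log2 fold change was 1.18 with an SE of 0.38 (edgeR adjusted p = 0.029). That call was lost when either control library or arginine-free replicate 1 was left out (edgeR adjusted p = 0.0799, 0.144 and 0.2) and with DESeq2 (adjusted p = 0.327). The row at the place of SMAD2, which carries the activin signal, stood at 0.66 (SE 0.27, edgeR adjusted p = 0.0741), and passed without arginine-free replicate 2 (0.79, edgeR adjusted p = 0.0335). The row of its membrane anchor ZFYVE9 stood at -0.17 (SE 0.45) and did not pass; it ran from -0.66 to 0.19 when 1 arginine-free library was left out. TGIF1, SMAD6, SMAD2 and ZFYVE9 lie outside the stretches of chromosome in which rows can be read as genes, so these are values of places too.

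Inside those stretches, 5 pathway genes were present. AMH, the anti-Müllerian hormone ligand, held 0 reads. DAB2, an adaptor that links the receptors to SMADs, had 485 ± 47.4 and 377 ± 159.5 CPM in control and arginine-free medium (SD, n = 2 each) and did not pass (log2 fold change -0.33, SE 0.28, edgeR adjusted p = 0.4). Without arginine-free replicate 1 it stood at -0.81 and passed (edgeR adjusted p = 0.0268). Its sign turned, to 0.09, when arginine-free replicate 2 was left out (edgeR adjusted p = 0.796). NCLN, an antagonist of the related ligand nodal, and PIAS4, a SUMO ligase that binds SMADs, stood at 0.18 (SE 0.21) and 0.23 (SE 0.38) on the log2 scale, and neither passed. PIAS4 stood at 0.94 without control replicate 2 and at -0.08 without control replicate 1, and passed in neither case. GADD45B, a gene induced by TGF-beta, stood at 0.73 (SE 0.33, edgeR adjusted p = 0.102), and at 1.38 without control replicate 2, where it passed (edgeR adjusted p = 0.0331). FSTL3, another secreted binder of activin and named here after its values were seen, lies outside the stretches and held 5 and 6 reads in control and 6 and 7 reads in arginine-free medium, too few to be tested.

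**Figure D3:**
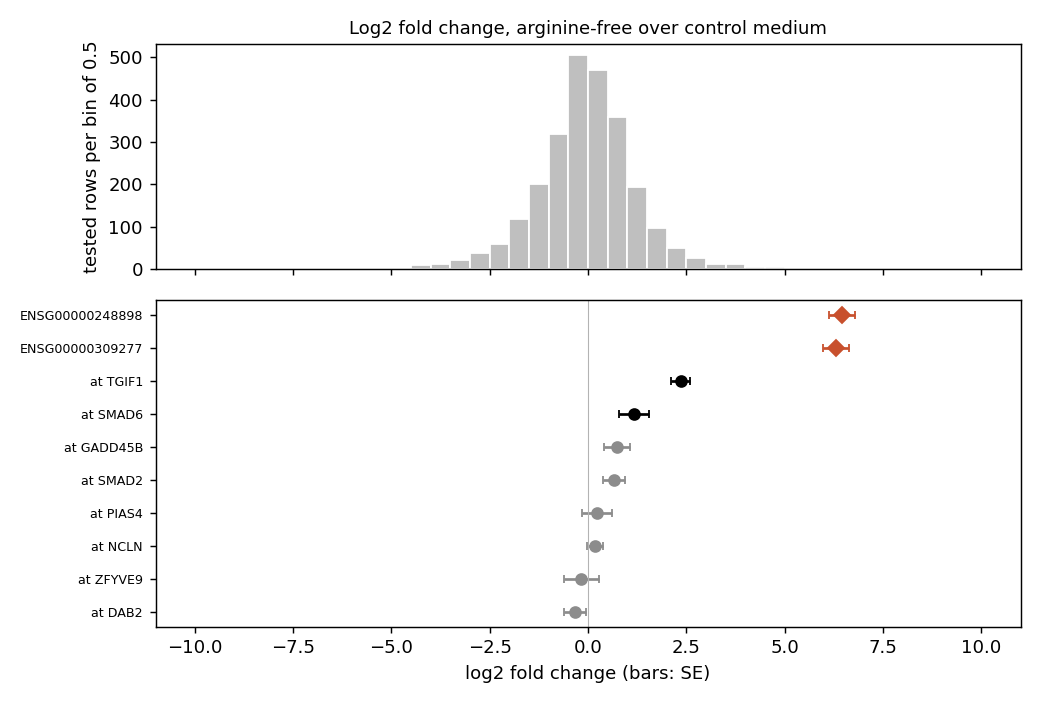
Log2 fold changes, arginine-free over control medium: above, a histogram of all 2526 tested rows in bins of 0.5; below, the chosen rows (diamonds) and the 8 tested pathway rows (circles, black where adjusted p was under 0.05), with bars for the SE. The chosen rows lie at 6.30 and 6.46, and the pathway rows between -0.33 and 2.36.

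The pattern of the chosen rows over the 4 libraries was compared with that of the 229 tested rows that can be read as genes, by the distance between log2 CPM values centred on each row's mean. The chosen rows lay 0.4 log2 units from each other. The nearest 3 rows were the same for both. ENSG00000248587 (chromosome 5, 37839884 to 38152717), which no RefSeq gene matched, lay at 3.38 from the activin place and 3.53 from the follistatin place, and held 1 and 4 control reads against 62 and 16 reads without arginine. VLDLR, a lipoprotein receptor, lay at 3.73 and 3.83 and held 4 and 8 against 72 and 32 reads. IRX4, a homeobox transcription factor, lay at 4.02 and 4.08 and held 1 and 0 against 12 and 11 reads. The chosen rows were picked for their difference between these same libraries, so the short distance between them follows from that choice. The other 3 had fitted log2 fold changes of 3.49, 2.69 and 3.88, below those of the chosen rows.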

How the data were processed

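Ribosome footprints of A375 cells were counted in 4 libraries. The deposited values are raw counts over exons of the GENCODE 47 basic annotation. The authors ran featureCounts 2.0.1 with no strand option and with the option for paired reads, per the file headers. Upstream tools, per the submitters' processing notes, include Bowtie2 2.5.2, cutadapt and TopHat2, with GRCh37 and hg19 as builds; the filter behind the alignments used is not given in the sources used here. No ribosomal RNA was removed, per the labels' protocols.

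Groups came from the sample titles. The whole table was fitted with edgeR 4.0.16 (R 4.3.3): filterByExpr by group, TMM factors, quasi-likelihood test, Benjamini-Hochberg adjustment over all tested rows, threshold 0.05. SE was worked back from the log2 fold change and its F statistic, and may be too small near 0 counts. The self-test used simulated counts. DESeq2 1.42.0 was an alternative, beside other size factors, filters, a replicate block and leaving out each library.

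Rows were named by place against RefSeq on GRCh38.p14 (38559 rows; overlap over union of at least 0.5 with a shared end, 0.75 without). A row was read as its gene only on the mitochondrial chromosome and in 5 stretches found earlier in these data (SDHA to HMGCS1, H1-1 to H4C3, H2BC7 to H2BC10, VLDLR to VCP, ATP5F1D to CHAF1A). No coordinates were converted between builds. Named genes are the chosen rows, INHBA and FST, every tested row of the pathway lists, list members in the stretches, the 2 neighbours with most reads, and the 3 nearest rows by pattern; PELO and FSTL3 were added after their values were seen. The members, stretches and lists were chosen with earlier results of these data known. A planned look at the proteins of INHBA and FST was not made. Molecular identifiers are not mentioned in the sources used here, and counting intervals cover counting error only.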

Additional observations from a re-analysis of the deposited data

How the results depend on the processing

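The log2 fold change of the activin place ran from 6.07 to 6.70 and that of the follistatin place from 6.19 to 7.11 over 12 alternatives each, and neither changed sign. In 11 of 12 each moved by less than the spread between replicates, 0.28 and 0.34. The exception was leaving out control replicate 2, which leaves 4 and 2 control reads: without 1 library at a time the values ran from 6.11 to 6.70 and from 6.19 to 7.11, with a lone library assumed to vary like the other group. With the replicate number as a block they were 6.27 and 6.50. Same-numbered libraries share only a number: over 2526 rows their deviations from the group means had a correlation of -0.0528, and the block gave 726 rows past the threshold in place of 833. Of the pathway rows 2 were past the threshold, 2 higher and 0 lower, and 2 with the block. Leaving out 1 library gave 1 to 3 in all, 1 to 3 higher and 0 to 1 lower. A filter of 50 counts in each library of either group left 1, which was higher, and DESeq2 also left 1, which was higher. Over the table, the 50-count filter gave 284 rows (138 higher, 146 lower, with 580 tested) and DESeq2 gave 309 (162 higher, 147 lower). Leaving out 1 library gave 513 to 798 rows, 270 to 418 higher and 243 to 389 lower, lowest without control replicate 2. Fewer rows were tested under the 50-count filter by construction. DESeq2 covered 2669 rows and the fits without 1 library 2826 to 3172, more than the 2526 of the main fit. The cause of the lower counts in those fits was not tested. Of 92 values of the 8 pathway rows, 85 stayed as in the main fit, called or not called. Another 4 lost a call, 3 gained one and 0 turned sign while called. Only the rows at TGIF1 and SMAD6 were called in the main fit, and all 4 lost calls were at SMAD6. In the control libraries the chosen rows rest on 2 to 11 reads, which limits the precision of their fold changes.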
